A study of Mus musculus with 14 samples.

Results

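The 9 mouse genes Chd1 to Chd9 encode the chromodomain helicase DNA-binding (Chd) proteins, and their transcripts were measured in cerebellar granule neuron progenitors (GNPs) that carried or lacked intact Chd7. These progenitors divide in the external granule layer of the young cerebellum and give rise to its granule neurons. The members were chosen by name, by matching the Ensembl identifiers of the expression table to gene symbols, which gave 9 of its 41381 genes. Values are in TPM, a relative transcript abundance that is scaled to transcript length and to the library, so that genes can be set side by side. In 4 or more libraries all 9 members reached a TPM of 1, as did 17325 genes in all, and these 17325 were the genes tested.

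Total RNA was sequenced from 14 libraries of GNPs taken fresh at postnatal day 7 (P7). The 5 WT libraries are labelled Chd7 wild type or Atoh1-Cre negative, and the study's methods describe floxed Chd7 without Cre. The 5 Het libraries carry Atoh1-Cre and 1 floxed copy of Chd7 (Atoh1-Cre::Chd7 f/+) and the 4 Hom libraries carry Atoh1-Cre and both copies floxed (Atoh1-Cre::Chd7 f/f). Atoh1-Cre acts in the granule cell lineage, so Chd7 stays intact in cells outside that lineage, and the study still saw Chd7 protein in the posterior lobe of these mice. Since every Het and Hom library has Cre and no WT library does, Cre and the loss of Chd7 cannot be told apart. The study sequenced the libraries in 2 batches. Batch 1 holds WT 1 to 3, Het 1 to 3 and Hom 1 and 2, and batch 2 holds WT 4 and 5, Het 4 and 5 and Hom 3 and 4. The strain is labelled C56Bl6/J for the 7 libraries WT 1 to 3, Het 1 and 2 and Hom 1 and 2, and C57BL/6 for the 7 others. The labels do not say that libraries came from separate animals, so p-values measure the spread between these samples, which may be technical.

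Chd proteins are ATP-dependent motors that slide, eject or space nucleosomes, and all of them pair an SNF2-type ATPase with tandem chromodomains. Chd1 and Chd2 act on transcribed genes, where Chd1 binds methylated histone H3. Chd3, Chd4 and Chd5 carry PHD fingers and are the alternative motors of the nucleosome remodelling and deacetylase (NuRD) complex, with Chd4 the usual motor of neural progenitors and Chd5 known from differentiated neurons. Chd6 to Chd9 form the third branch, with Chd7 mutated in CHARGE syndrome and Chd8 in a form of autism.

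The ATPase motor is what the family shares, and the DEAH box, the short stretch of its ATP-binding core that is read as the amino acids Asp, Glu, Ala and His, is shown here to let the members be compared at 1 equivalent place. An in-frame DEAH occurs exactly once in the longest coding sequence of each of the 9 genes, and at least once in 0.349% of 21492 mouse genes. The coding-strand windows of 60 bases from the GENCODE vM21 transcripts are given below 5′ to 3′, with the 12 bases of the DEAH box in capitals. Each lies inside a single coding exon of the GRCm38 genome.
Chd1, chr17:15738497-15738556, plus strand: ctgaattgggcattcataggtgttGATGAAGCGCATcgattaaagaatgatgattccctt
Chd2, chr7:73490595-73490654, minus strand: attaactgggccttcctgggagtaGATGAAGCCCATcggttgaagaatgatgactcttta
Chd3, chr11:69356938-69356997, minus strand: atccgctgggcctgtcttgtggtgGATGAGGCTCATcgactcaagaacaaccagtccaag
Chd4, chr6:125108737-125108796, plus strand: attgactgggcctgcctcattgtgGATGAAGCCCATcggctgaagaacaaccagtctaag
Chd5, chr4:152370583-152370642, plus strand: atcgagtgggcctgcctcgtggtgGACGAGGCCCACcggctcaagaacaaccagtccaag
Chd6, chr2:161018056-161018115, minus strand: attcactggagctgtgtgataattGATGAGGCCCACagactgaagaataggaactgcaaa
Chd7, chr4:8828319-8828378, plus strand: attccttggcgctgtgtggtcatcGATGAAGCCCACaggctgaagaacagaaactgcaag
Chd8, chr14:52219627-52219686, minus strand: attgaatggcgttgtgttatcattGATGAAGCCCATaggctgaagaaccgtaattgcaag
Chd9, chr8:90994547-90994606, plus strand: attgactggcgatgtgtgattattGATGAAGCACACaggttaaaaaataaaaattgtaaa

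Chd7 and Chd8 were identical at 81.7% of these 60 positions, as were Chd7 and Chd6, whereas Chd7 and Chd1 matched at 48.3%. Pairs within the Chd6 to Chd9 branch matched at 73.3% to 81.7%, the 3 pairs among Chd3, Chd4 and Chd5 at 80.0% to 85.0%, and Chd1 and Chd2 at 75.0%. The 26 pairs from different branches matched at 48.3% to 73.3%. This likeness did not extend to identical stretches as long as a read: no 50-base word of any member's transcripts occurred in another member's, with mismatched words not counted. Words shared with other genes made up 0% of the Chd1, Chd3 and Chd7 words, 0.173% to 0.583% for Chd4, Chd5 and Chd6, 2.41% for Chd9 and 4.72% for Chd8. The share was 18.0% for Chd2, whose 5′ end overlaps the non-coding gene 1810026B05Rik by 2628 bases on the same strand, so by this measure the Chd2 values are the least certain of the 9.

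The libraries were alike in general measures, with 15863 to 16734 genes at a TPM of at least 1 and 4.93% to 6.56% of the TPM in mitochondrial genes. Read depth is unknown from TPM. All 10 GNP markers were detected (summed TPM 2533 to 3519), Atoh1 among them at 20.8 to 50.6. The 7 granule neuron markers were uneven. Gabra6 of mature granule neurons was at 0 to 1.03 and Grin2c at 0.32 to 4.89. Mean TPM of the others was 732 for Neurod1, 583 for Tubb3, 522 for Cntn2, 161 for Rbfox3 and 20.7 for Slc17a7. Markers of some other cells set WT 1 to 3 apart from the other WT libraries. Summed oligodendroglial, microglial, red blood cell and meningeal markers overlapped between WT 1 to 3 and WT 4 and 5. Summed TPM of 7 endothelial markers was 27.7 to 37.7 in WT 1 to 3, 225 and 127 in WT 4 and 5 and 21.1 to 483 in the Het and Hom libraries, with Cldn5 the most abundant. Summed TPM of 6 Purkinje cell markers was 74.9 to 106.5 in WT 1 to 3, 28.7 and 25.4 in WT 4 and 5 and 25.8 to 56.3 in the Het and Hom libraries, with the defining marker Pcp2 at 0 to 30.6. Summed TPM of 6 astroglial markers was 1106 to 1700 in WT 1 to 3 and 306 to 1062 in the other 11 libraries, with no overlap, and Fabp7 had the highest mean of the 6. Het 3, also of batch 1, came nearest to WT 1 to 3 in the astroglial (1062) and Purkinje cell (56.3) sums. It had the lowest endothelial sum of all libraries (21.1). In these bulk samples fewer cells of a type and less RNA per cell cannot be told apart.

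Chd7, the gene that Atoh1-Cre should inactivate, was abundant in all 14 libraries. Chd7 (ENSMUSG00000041235, GRCm38 chr4:8690406-8867659, plus strand, protein coding) spans 177.3 kb. In WT 1 to 5 its TPM was 121, 152, 132, 203 and 272. In Het 1 to 5 it was 166, 181, 150.4, 149 and 137. In Hom 1 to 4 it was 172, 185, 149.9 and 126. WT 4 and WT 5 stood above all other libraries, WT 1 was the lowest of all 14, and the 3 genotypes overlapped. Gene-level TPM counts reads from every exon and single exons were not analysed here, so these values do not check the floxed allele itself.

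The libraries labelled Hom had no detectable difference from WT in Chd7 when both batches were fitted together with limma (log2 change -0.11, SE 0.20, 95% interval -0.55 to 0.33, adjusted p = 0.862). Het against WT gave -0.11 as well (SE 0.19, 95% interval -0.52 to 0.30, adjusted p = 0.957). All changes here are on the log2(TPM + 1) scale, and adjusted p-values are Benjamini-Hochberg values across all 17325 genes. Leaving out 1 library moved the Hom value between -0.22 and 0.09 and the Het value between -0.22 and 0.07, and both signs turned without WT 5.

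The 2 batches gave opposite signs for Chd7. In batch 1, mean TPM was 135 ± 15.6 (SD, n = 3) in WT, 166 ± 15.5 (n = 3) in Het and 179 ± 9.12 (n = 2) in Hom. Both Hom libraries lay above all 3 WT libraries, while Het 3, at 150.4, was just under WT 2, at 152. In batch 2, mean TPM was 238 ± 48.7 in WT, 143 ± 8.90 in Het and 137.8 ± 17.1 in Hom (n = 2 each), and every Het and Hom library was below both WT libraries. In batch 2 Chd7 had the direction that the labels give and in batch 1 the opposite one, and the groups are named below as the labels give them. The study also assayed Chd7 by quantitative PCR in GNPs of these genotypes and reported significantly lower transcript levels in Het and Hom than in WT. By antibody staining of mutant cerebella and of cultured granule cells, it reported loss of Chd7 protein from Hom granule cells. Those measurements are not analysed here.

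**Figure D1:**
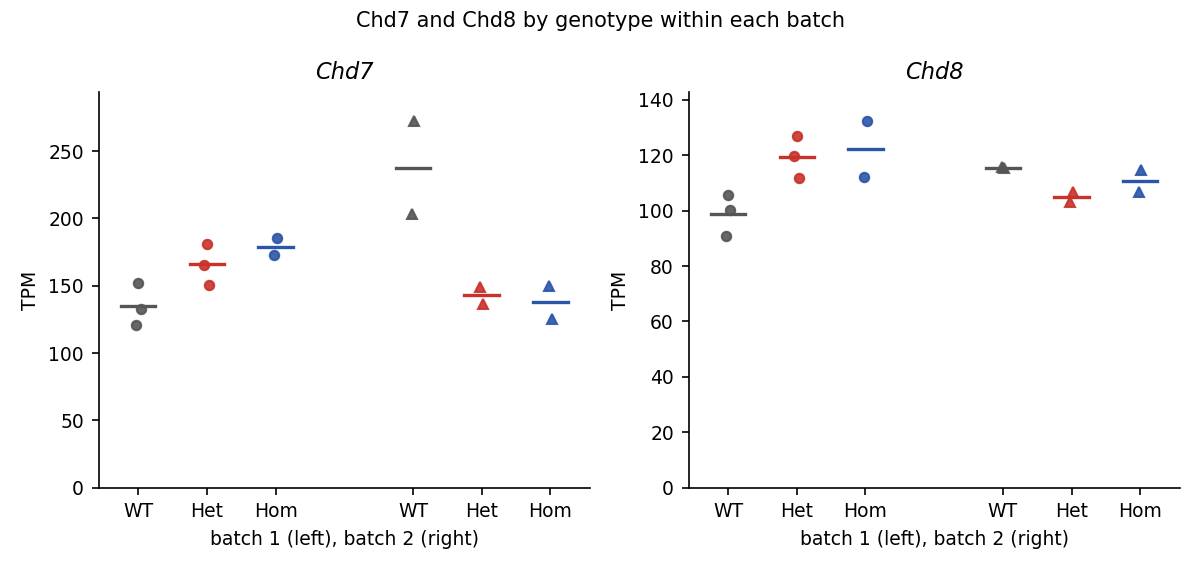
TPM of Chd7 (left) and Chd8 (right) in each library, by genotype within batch 1 (circles) and batch 2 (triangles), with bars at the group means and axes from 0. The 2 batch 2 WT libraries hold the highest Chd7 values (203 and 272), and Chd8 in Het and Hom lies above WT in batch 1 and below WT in batch 2.

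Fitted in batch 1 alone, Chd7 was 0.41 higher in Hom than in WT (SE 0.11, unadjusted p = 0.00658, adjusted p = 0.152, limma), and in batch 2 alone it differed by -0.77 (SE 0.16, unadjusted p = 0.00214, adjusted p = 0.164). For Het the values were 0.30 in batch 1 (adjusted p = 0.445) and -0.71 in batch 2 (adjusted p = 0.791). None of the 4 passed the adjusted threshold of 0.05. An interaction of genotype and batch in 1 limma fit of all 14 libraries tested how far the batches differed. It came to -1.18 for Hom (SE 0.20, unadjusted p = 1.17e-04, adjusted p = 0.127) and -1.01 for Het (SE 0.19, unadjusted p = 2.90e-04, adjusted p = 0.445), ranks 13 and 8 among the 17325 genes. Without WT 4 both interactions were called (-1.39, adjusted p = 0.0279, and -1.22, adjusted p = 0.0382), and leaving out any other library gave no call. In the fit of all 14 libraries, 0.0115% of all genes were called for the Hom interaction and 0.00577% for the Het interaction, and 17.2% and 9.30% had an unadjusted p under 0.05.

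Cell marker levels were set beside Chd7. The 3 WT libraries of batch 1, with low endothelial and high Purkinje cell and astroglial marker levels, included the lowest Chd7 value. Their summed GNP markers (2533 to 2631) were below those of every other library. These were 3335 to 3519 in WT 4 and 5, 2897 to 3086 in Het and 2813 to 3232 in Hom. Over all 14 libraries, Pearson's r of Chd7 with mean marker level was 0.33 for endothelium, -0.52 for Purkinje cells and -0.42 for astroglia. It was 0.52 for GNPs and -0.58 for microglia, the largest in size of the 10 lists. These r values were not tested. With the mean levels of the endothelial and Purkinje cell markers as covariates, Chd7 in Hom differed from WT by -0.40 (SE 0.14, unadjusted p = 0.0131, adjusted p = 0.147, limma) and in Het by -0.48 (SE 0.13, unadjusted p = 0.00287, adjusted p = 0.249). With the astroglial markers as the covariate, an alternative chosen after seeing the data, the values were -0.51 (SE 0.20, unadjusted p = 0.0276, adjusted p = 0.275) and -0.31 (SE 0.16, adjusted p = 0.691). None of the 4 passed the threshold.

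The spread left by the fit of genotype and batch was wide for Chd7 (SD 0.34 of the log2 values) and Chd5 (0.34), against 0.10 to 0.18 for the other 7 members. For Chd7 this SD includes the opposite signs of the batches, and around the means of each genotype in each batch it was 0.17. Around those means Chd5 (0.35) and Chd6 (0.20) had the larger SDs, and Chd1, Chd2, Chd3, Chd4, Chd8 and Chd9 ranged from 0.08 to 0.14. The Chd7 SD around those means was larger than that of 80.3% of the 4348 genes whose TPM averaged 50 or more.

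In WT, Chd4 was the most abundant member and Chd7 came second. Mean WT TPM (± SD, n = 5) was 279 ± 29.4 for Chd4 and 176 ± 62.3 for Chd7. Chd3, at 112 ± 9.05, and Chd8, at 106 ± 10.5, were close together. Chd1 (70.0 ± 6.02), Chd6 (62.9 ± 8.55) and Chd2 (54.1 ± 3.68) followed, Chd9 was at 17.9 ± 1.81, and Chd5 at 1.67 ± 0.325. Chd4 ranked 505 and Chd7 921 among the 17325 genes by mean WT level, and Chd5 ranked 15112.

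**Figure D2:**
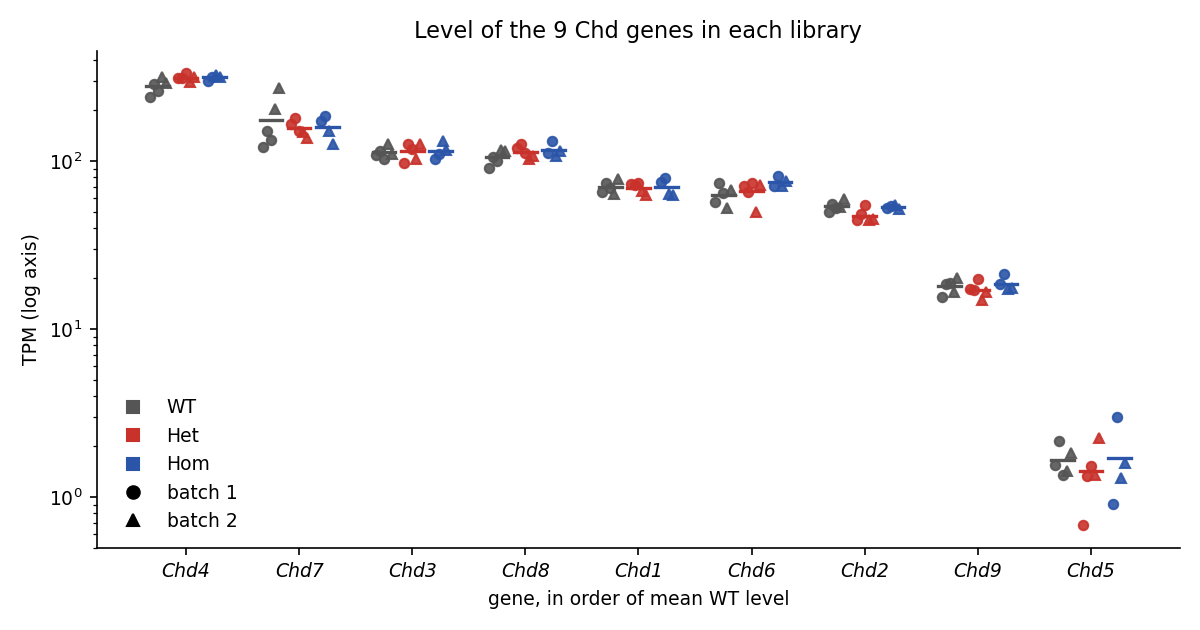
TPM of the 9 Chd genes in each library on a log axis, ordered by mean WT level, with WT in grey, Het in red and Hom in blue, circles for batch 1, triangles for batch 2 and bars at the group means. The order runs from Chd4, with a WT mean of 279, to Chd5, with a WT mean of 1.67, and the genotypes overlap for every gene.

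Within a library the levels could be ordered at most steps. Of the 8 pairs of neighbours in the WT order, 6 differed over the 14 libraries in exact two-sided sign-flip permutation tests on the log2 TPM. Chd4 exceeded Chd7 in 14 of 14 libraries (ratio 1.87), Chd7 exceeded Chd3 in 14 of 14 (1.42) and Chd8 exceeded Chd1 in 14 of 14 (1.59). Chd6 exceeded Chd2 in 13 of 14 (ratio 1.31, exact p = 2.44e-04, adjusted p = 3.26e-04). Chd2 exceeded Chd9 (ratio 2.89) and Chd9 exceeded Chd5 (ratio 11.8), each in 14 of 14. These 5 pairs with 14 of 14 each had an exact p of 1.22e-04, the smallest that 14 libraries allow, and an adjusted p of 1.95e-04. Chd3 and Chd8 did not differ beyond their spread (Chd3 higher in 9 of 14, ratio 1.02, exact p = 0.554), nor did Chd1 and Chd6 (Chd1 higher in 8 of 14, ratio 1.04, exact p = 0.280). The WT libraries that set the order are among the 14 tested, together with the Het and Hom libraries, so order and tests are not independent. The 5 WT libraries alone cannot give a p below 0.0625.

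Chd4 held the largest share of the family's TPM in WT. It made up 31.8% ± 1.81 of the summed TPM of the 9 genes, Chd7 19.6% ± 4.53, Chd3 12.9% ± 1.28 and Chd8 12.03% ± 0.432 (SD, n = 5). Chd5 made up 0.191% ± 0.0364. Over all 14 libraries the Chd7 share ran from 14.2% in Hom 4 to 26.8% in WT 5. By branch, mean WT TPM was 393 ± 37.4 for Chd3 to Chd5, 362 ± 73.4 for Chd6 to Chd9 and 124 ± 9.44 for Chd1 and Chd2.

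Whether a paralog was higher where Chd7 was targeted was asked next, and no member passed the test. In Hom against WT 0 of the 9 genes were called by limma at an adjusted p under 0.05, where 2.68% of all genes were, and 2 of the 9 had an unadjusted p under 0.05, where 14.9% of all genes did. In Het against WT 0 of 9 were called (0.00577% of all genes) and 2 had an unadjusted p under 0.05 (6.08%). In Hom against Het 0 of 9 were called (0.427%) and 1 had an unadjusted p under 0.05 (6.18%). The median log2 change of the 9 was 0.02 in Hom and -0.01 in Het, against 0.02 and 0.01 for all genes tested. In each of these comparisons all 9 genes had overlapping groups over the whole set of libraries, whereas 2.91% of all genes had every Hom value above every WT value and 1.96% below, and 0.462% and 0.583% had so in Het. The comparisons with WT share the WT libraries. Ranks were compared among the 3 genotypes too, by an exact Kruskal-Wallis test, which gave 0 of 9 an unadjusted p under 0.01 after removal of the batch term, against 4.63% of all genes, with the lowest exact p at 0.0581 for Chd4.

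**Figure D3:**
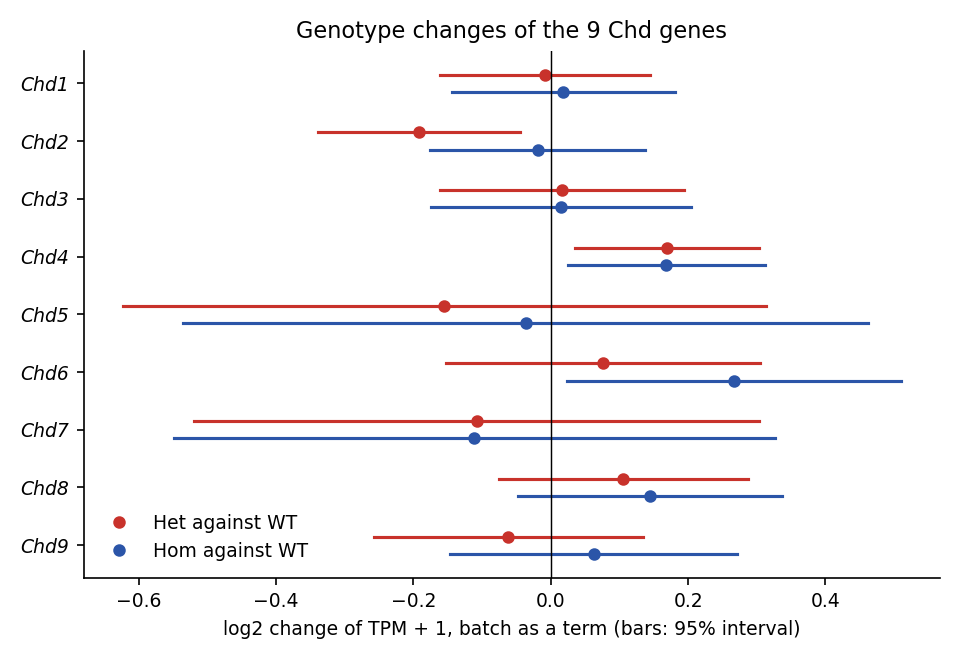
Log2 change of TPM + 1 in Het (red) and Hom (blue) against WT for the 9 Chd genes, fitted with batch as a term, with bars for the 95% interval. The intervals of Chd4 in both comparisons, Chd6 in Hom and Chd2 in Het leave out 0, and none of these passed the test after adjustment over 17325 genes.

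Chd4, the NuRD motor, had the narrowest interval above 0. In WT 1 to 5 its TPM was 241, 286, 259, 317 and 292. In Het 1 to 5 it was 311, 309, 332, 295 and 317, and in Hom 1 to 4 it was 300.02, 314, 326 and 317. WT 1, 2, 3 and 5 lay below every Het and Hom library, whereas WT 4 lay among them. The log2 change was 0.17 in Hom (SE 0.07, 95% interval 0.03 to 0.31, unadjusted p = 0.0245, adjusted p = 0.251, limma) and 0.17 in Het (SE 0.06, unadjusted p = 0.0174, adjusted p = 0.672). In batch 1 alone it was 0.23 in Hom and 0.28 in Het, and in batch 2 alone 0.08 and 0.01. WT 1 to 3 are also libraries with low endothelial and high Purkinje cell marker levels, and with those markers as covariates the changes were 0.14 (unadjusted p = 0.115) and 0.12 (unadjusted p = 0.123). With the astroglial covariate, chosen after seeing the data, they were 0.16 in Hom (unadjusted p = 0.0922, limma) and 0.17 in Het (unadjusted p = 0.0355, limma).

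Chd6, the closest relative of Chd7 in the window together with Chd8, had a log2 change of 0.27 in Hom (SE 0.11, 95% interval 0.02 to 0.51, unadjusted p = 0.0342, adjusted p = 0.285). Its TPM in WT 1 to 5 was 57.1, 74.3, 64.1, 52.3 and 66.8. In Het 1 to 5 it was 71.3, 65.7, 74.3, 49.6 and 71.9, and in Hom 1 to 4 it was 71.3, 80.9, 70.8 and 75.8. The Hom libraries were in the upper part of the range, with only WT 2 reaching into them from WT. The sign was the same in both batches, 0.23 in batch 1 and 0.30 in batch 2, and Het differed from WT by 0.08 (adjusted p = 0.943).

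Chd8, which binds beta-catenin and CTCF, had a log2 change of 0.14 in Hom (adjusted p = 0.493, SE 0.09), while Het gave 0.11 (adjusted p = 0.885, SE 0.08). In WT 1 to 5 its TPM was 90.9, 106, 100.3, 116 and 115. In Het 1 to 5 it was 119.5, 127, 112, 103 and 107, and in Hom 1 to 4 it was 112, 132, 107 and 115. All Het and Hom libraries of batch 1 were above all WT libraries of that batch, and all those of batch 2 were below. In batch 2 the gap was narrow, with Hom 4 at 114.74 and WT 5 at 115.21. The changes were 0.30 in Hom and 0.27 in Het in batch 1 (adjusted p = 0.230 and 0.439) and -0.06 and -0.14 in batch 2 (adjusted p = 0.741 and 0.803). The interaction was -0.36 for Hom (SE 0.13, unadjusted p = 0.0206, adjusted p = 0.214) and -0.41 for Het (SE 0.13, unadjusted p = 0.00806, adjusted p = 0.486). With the endothelial and Purkinje cell covariates the changes were -0.01 in Hom and -0.04 in Het. With the astroglial covariate they were 0.06 in Hom and 0.07 in Het.

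**Figure D4:**
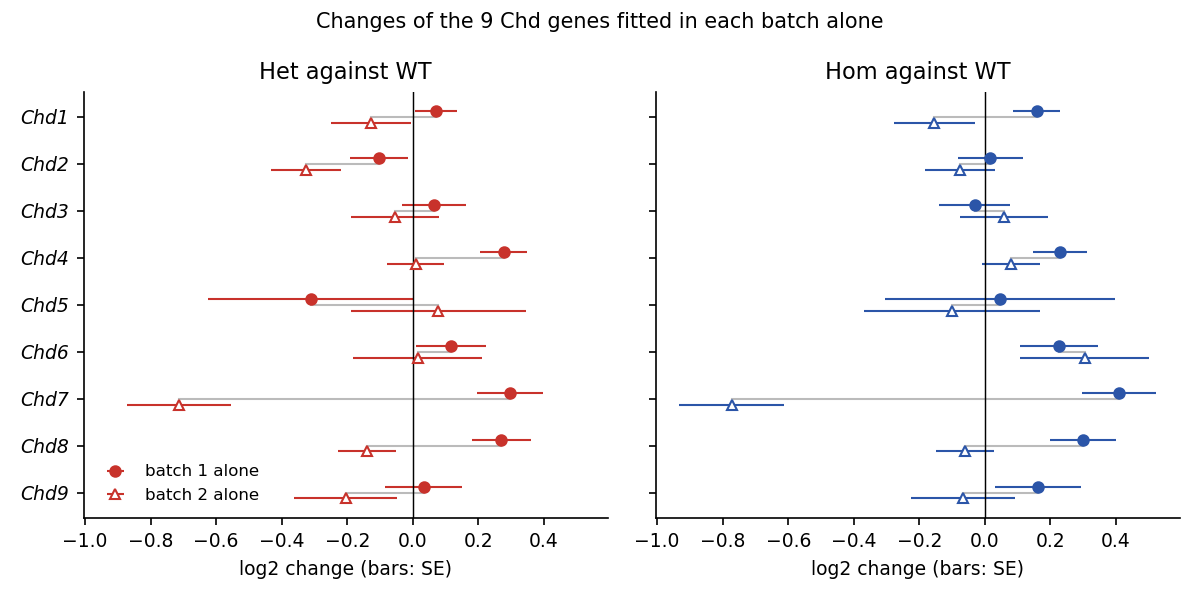
Log2 change of TPM + 1 in Het (left, red) and Hom (right, blue) against WT, fitted in batch 1 alone (filled circles) and batch 2 alone (open triangles), with bars for the SE. Chd7 has the widest gap between the batches in both panels (0.30 and -0.71 in Het, 0.41 and -0.77 in Hom), while Chd6 in Hom has like values (0.23 and 0.30).

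Such a switch, with the mutant libraries wholly above WT in 1 batch and wholly below WT in the other, was seen for 2 of the 9 genes in Hom (Chd7 and Chd8), against 8.05% of all genes, and for 1 of 9 in Het (Chd8), against 3.33%. No member was called for the interaction, against 0.0115% of all genes in Hom and 0.00577% in Het, and 3 of 9 had an unadjusted p under 0.05 in each, against 17.2% and 9.30%: Chd1 (-0.31, unadjusted p = 0.0348), Chd7 and Chd8 in Hom, and Chd4 (-0.27, unadjusted p = 0.0324), Chd7 and Chd8 in Het. The interaction was below 0 for 7 of the 9 genes in Hom, where 49.3% of all genes were, and for 8 of 9 in Het, where 52.9% were.

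Chd2, a remodeller of transcribed genes, had the lowest unadjusted p of the 9 in Het. In WT 1 to 5 its TPM was 49.7, 55.6, 52.7, 53.2 and 59.5, in Het 1 to 5 it was 44.3, 48.5, 54.3, 44.4 and 45.0, and in Hom 1 to 4 it was 52.3, 54.1, 54.8 and 51.9. Het 3 lay among the WT libraries and the other 4 Het libraries were below them all. Het differed from WT by -0.19 (SE 0.07, 95% interval -0.34 to -0.05, unadjusted p = 0.0142, adjusted p = 0.648), with -0.10 in batch 1 and -0.33 in batch 2. Hom differed from WT by -0.02 (adjusted p = 0.945) and from Het by 0.17 (unadjusted p = 0.0321, adjusted p = 0.724). The overlapping gene 1810026B05Rik had a median TPM of 148 in WT, 143 in Het and 129 in Hom, and how its reads were divided from those of Chd2 was not tested.

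The other members were nearer 0. Chd1 differed by 0.02 in Hom and -0.01 in Het and ranged from 62.7 to 79.3 over the 14 libraries. Chd3, which like Chd4 serves NuRD, differed by 0.01 and 0.02 and ranged from 97.9 to 132. Chd9 differed by 0.06 and -0.06 and ranged from 14.8 to 21.1. Chd5, at 0.68 to 2.98 in all libraries, differed by -0.04 and -0.15 with 95% intervals from -0.54 to 0.46 and from -0.62 to 0.31, the widest of the 9.

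As folds of TPM + 1, the Hom intervals give a range for each paralog in the fit of both batches together. They were 1.02 to 1.42 for Chd6, 0.967 to 1.26 for Chd8, 1.02 to 1.24 for Chd4 and 0.904 to 1.21 for Chd9. They were 0.886 to 1.15 for Chd3, 0.905 to 1.13 for Chd1, 0.886 to 1.10 for Chd2 and 0.690 to 1.38 for Chd5. The highest upper end in this fit was the 1.42 of Chd6, and the interval of Chd7 itself was 0.684 to 1.25. Each of the 8 paralogs had a higher upper end in at least 1 batch fitted alone. These upper ends were 1.25 for Chd1, 1.18 for Chd2 and 1.38 for Chd9 in batch 1, and 1.30 for Chd3 in batch 2. In batch 1 alone the intervals were 1.03 to 1.34 for Chd4, 0.589 to 1.81 for Chd5 and 1.05 to 1.44 for Chd8. In batch 2 alone that of Chd6 was 0.891 to 1.71. The summed TPM of the 8 paralogs without Chd7 was 704 ± 52.2 in WT, 742 ± 40.8 in Het and 764 ± 25.7 in Hom, and with Chd7 it was 880 ± 108, 899 ± 47.7 and 922 ± 41.3, sums that were not tested.

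The members were also compared between the batches themselves. Between the batches 0 of 9 members were called, where 13.5% of all genes were, and 1 of 9 had an unadjusted p under 0.05, where 28.9% of all genes did. That was Chd1, with a mean TPM of 72.6 ± 4.14 in batch 1 (n = 8) and 66.3 ± 6.04 in batch 2 (n = 6) and a log2 difference of -0.13 (unadjusted p = 0.0474, adjusted p = 0.167). Without WT 5, the highest batch 2 library for Chd1 at 78.4, Chd1 was called (-0.19, adjusted p = 0.0200).

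Whether the level of a paralog ran with or opposite to that of Chd7 across libraries was computed for each of the 8 paralogs. Pearson's r with Chd7 over the 14 libraries was 0.60 for Chd8 (permutation p = 0.0253, adjusted p = 0.101) and 0.59 for Chd1 (permutation p = 0.0230, adjusted p = 0.101), and between -0.03 for Chd6 and 0.42 for Chd9 for the other 6, with 0 of 8 passing the adjusted threshold. Spearman's rho was 0.75 for Chd8 (permutation p = 0.00239, adjusted p = 0.0191) and 0.60 for Chd1 (permutation p = 0.0256, adjusted p = 0.103), and no other rho had an adjusted p below 0.386. Without WT 4 and WT 5, the 2 libraries farthest from the median of Chd7, r was 0.80 for Chd8 (n = 12, permutation p = 0.00211) and 0.78 for Chd1 (n = 12, permutation p = 0.00345). Leaving out WT 5 alone gave Chd8 an r of 0.74 (adjusted p = 0.0334, permutation test) and leaving out WT 4 alone gave Chd1 an r of 0.76 (adjusted p = 0.00640, permutation test).

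**Figure D5:**
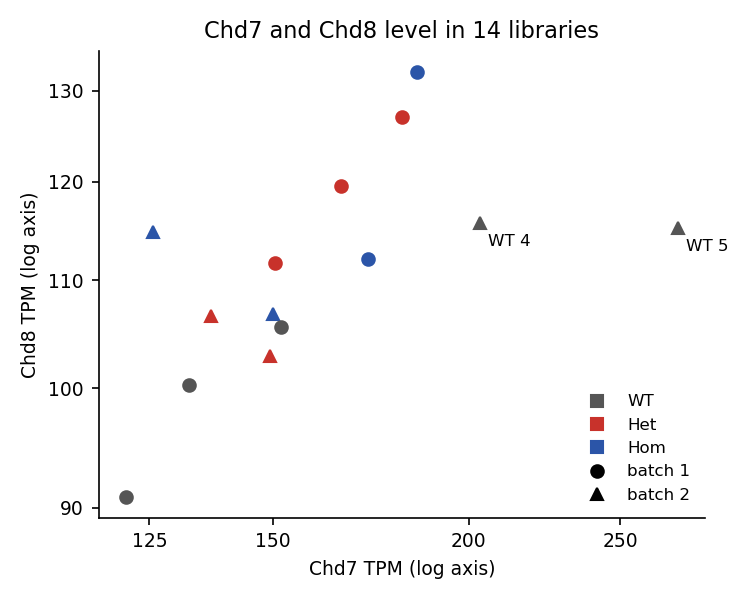
Chd8 TPM against Chd7 TPM in the 14 libraries, both on log axes, coloured by genotype, with circles for batch 1 and triangles for batch 2. The 8 batch 1 libraries run upward together (r 0.95), and WT 4 and WT 5 lie to the right with the highest Chd7 values and middling Chd8 values (116 and 115).

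Within batch 1, r was 0.95 for Chd8 (n = 8, exact permutation p = 2.98e-04), 0.87 for Chd1 (exact permutation p = 0.00389), 0.81 for Chd4 (exact permutation p = 0.0169) and 0.71 for Chd6 (exact permutation p = 0.0473). Within batch 2, it was 0.83 for Chd1 (n = 6, exact permutation p = 0.0458), 0.51 for Chd8 (exact permutation p = 0.340), -0.55 for Chd4 (exact permutation p = 0.232) and -0.28 for Chd6 (exact permutation p = 0.647). These within-batch values were not adjusted for the 8 paralogs. No paralog had a negative r that passed a test, and the genotypes and cell markers that differ between libraries are part of all these values.

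Genes with the pattern most like that of Chd7 over the 14 libraries, by Pearson's r of log2(TPM + 1) among 12191 genes, were Asxl3 (0.96), a Polycomb-related chromatin regulator, Gm340 (0.94), Frs2 (0.93), an adaptor of FGF receptors, Cblb (0.93), a ubiquitin ligase, and Slc30a1 (0.93), a zinc exporter. In all, 11 genes had an r above 0.9 with Chd7. Asxl3 had a TPM of 16.3 in WT 4 and 20.3 in WT 5 and 10.7 to 16.7 in the other libraries. The closest gene to each paralog was Ythdc1 for Chd1 (0.94), the short non-coding gene Gm25297 for Chd2 (0.85), Hdhd5 for Chd3 (0.86) and Arhgap35 for Chd4 (0.93). It was Cnot2 for Chd5 (0.81), Apaf1 for Chd6 (0.93), the N-cadherin gene Cdh2 for Chd8 (0.92) and Arih1 for Chd9 (0.88). These values are descriptions of the highest among many and carry no test.

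Genes that work with or beside the Chd proteins were read from 4 lists of 68 genes, of which 67 were tested. In Hom, 1 of the 67 was called higher and 0 lower, where 1.27% of all genes were called higher and 1.41% lower. At an unadjusted p under 0.05 in limma, 11 were higher and 2 lower, where 14.9% of all genes passed in either direction. In Het, 0 were called, where 0.00577% of all genes were. At an unadjusted p under 0.05, 4 were higher and 0 lower, where 6.08% of all genes passed in either direction. Shares of all genes by direction were not computed at that mark, so these splits have no like share beside them. The gene called was Smarca2, an ATPase of the SWI/SNF complex, with a TPM of 80.9 ± 5.54 in WT (n = 5), 95.8 ± 11.3 in Het (n = 5) and 114 ± 11.2 in Hom (n = 4). It rose by 0.49 in Hom (SE 0.09, adjusted p = 0.0103, limma) and was called in 24 of 28 other fits. In the other 4 it was 0.45 in batch 1 alone (adjusted p = 0.0521), 0.55 in batch 2 alone (adjusted p = 0.225), 0.48 with the endothelial and Purkinje cell covariates (adjusted p = 0.0570) and 0.54 with the astroglial covariate (adjusted p = 0.0511). Sox4, on the list of Chd8 and Chd7 partners, was the 1 gene called with the endothelial and Purkinje cell covariates (-0.35, adjusted p = 0.0200). In Het, Smarca2 differed by 0.23 (unadjusted p = 0.0176, adjusted p = 0.672). Summed TPM of 7 granule neuron markers was 1550 to 2008 in Hom, 2041 to 2237 in Het and 1889 to 2454 in WT, and its part in the change of Smarca2 was not tested.

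Of the 12 NuRD subunits tested, 0 were called in either comparison and 2 in Hom and 0 in Het had an unadjusted p under 0.05, against 14.9% and 6.08% of all genes, and the medians of their log2 changes were 0.06 in Hom and 0.06 in Het. Lowest in p in Hom were Gatad2a (0.18, adjusted p = 0.217), which joins Chd4 to the rest of NuRD, and the histone chaperone Rbbp7 (0.17, adjusted p = 0.272). Among 24 SWI/SNF subunits the median was 0.01 in Hom, and Dpf3, a reader of acetylated histones, differed by 0.54 (adjusted p = 0.0779) and was called without WT 5 (0.63, adjusted p = 0.0428). The neuronal subunit gene Actl6b was called lower only when Hom 3 was left out (-0.40, adjusted p = 0.0192). Among 18 other SNF2-type remodellers the median was 0.10 in Hom, with Smarca5, the ISWI motor, at 0.14 (adjusted p = 0.247) and Hells at 0.22 (adjusted p = 0.366). Among 13 partners of Chd8 and Chd7, Ctnnb1, which encodes beta-catenin, differed by 0.17 in Hom (adjusted p = 0.202) and Parp1 by 0.25 (adjusted p = 0.265).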

How the data were processed

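Total RNA of 14 GNP libraries was sequenced as single-end reads, and the authors aligned them to the mm10 transcriptome and made the deposited TPM values with RSEM (1.2.15) and Bowtie (1.0.0), versions that the submitters' processing notes also name. No counts were used, so depth and counting precision are unknown. Genotypes came from the labels and batches from the study's methods. Het 3 was submitted with the later libraries but placed in batch 1 by those methods, and was nearer the batch 1 Het mean for 80.8% of 1928 genes that differ between the batches.

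Genes that reached a TPM of 1 in 4 or more libraries were kept, and log2(TPM + 1) was fitted with limma (3.58.1, R 4.3.3; an intensity trend, genotype and batch as terms, all 14 libraries sharing 1 spread). This stands in for the study's batch adjustment. A gene was called at an adjusted p under 0.05. The script was tested on simulated data. Permutation tests of correlations drew 100000 resamples or were exact within batches, and all tests were two-sided.

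The members, gene lists and tests were chosen with earlier results of these data known. Named genes were the 9 members, from each partner list the 2 genes with the smallest unadjusted p in Hom against WT and any called, and the genes of most similar pattern (5 for Chd7, 1 for each paralog, with a mean TPM of at least 5). 1810026B05Rik, Actl6b and Sox4 were named outside that rule, after the data were seen. Positions and sequences came from GENCODE vM21 on GRCm38, the assembly also called mm10. Alternatives were other pseudocounts (0.1 and 0.5), filters, scalings, batch handling, marker covariates and leaving out each library. The astroglial covariate, and the fits of partner genes within batches, in 2 genotypes or with a block or covariates, were added after seeing the data.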

Additional observations from a re-analysis of the deposited data

Results flagged for a closer look

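The log2 change of Chd7 in Hom against WT in batch 2 minus that in batch 1 was -1.18, and it is listed because every Hom library lay above every WT library in batch 1 and below every WT library in batch 2. Chd8 is listed for the same reason in Hom, with a difference between the batches of -0.36. In batch 2, Hom 4 (114.74) was just under WT 5 (115.21). Chd8 in Het is listed too, with -0.41. The interaction tests of these 3 differences gave adjusted p-values of 0.127, 0.214 and 0.486 in limma. Chd7 in Het is not listed, since Het 3 overlapped the batch 1 WT libraries. In the 27 groups of 4 or 5 libraries that 3 genotypes and 9 genes make, 0 held a library that stood apart by Dixon's test, where chance flags about 1 in 20.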

How the results depend on the processing

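No Chd gene was called in Hom against WT or Het against WT under any pseudocount, filter, scaling, batch handling, covariate or left-out library tried. Nor was one in Hom against Het, which was not refitted with covariates or only 2 genotypes. The cause of the sign changes below was not tested. In the order of levels, 0 of 8 pairs passed in the WT libraries alone, against 6 over all libraries, since 5 libraries cannot reach the threshold.

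The log2 change of Hom against WT turned sign as follows: median-ratio scaling, Chd1 -0.012 and Chd3 -0.016. In batch 1 alone it did so for Chd2 (0.017), Chd3 (-0.032), Chd5 (0.046) and Chd7 (0.41), in batch 2 alone for Chd1 (-0.15), Chd8 (-0.060) and Chd9 (-0.067), and with the marker covariates for Chd1 (-0.031), Chd3 (-0.025) and Chd8 (-0.012). With the astroglial covariate, chosen after seeing the data, it did so for Chd1 (-0.096), Chd5 (0.069) and Chd9 (-0.030). For Het against WT it did so under quantile normalization for Chd3 (-0.0024), with Het 3 in batch 2 for Chd1 (0.013) and Chd3 (-0.0090), in batch 1 alone for Chd1 (0.071), Chd7 (0.30) and Chd9 (0.033), in batch 2 alone for Chd3 (-0.055), Chd5 (0.078) and Chd8 (-0.14), and with the covariates for Chd3 (-0.017) and Chd8 (-0.039). Between batches, Chd2 was at 0.049 with Het 3 in batch 2. The r with Chd7 under median-ratio scaling was -0.017 for Chd3 and -0.010 for Chd5.

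Leaving out each library in turn gave 0 to 1 Chd genes called for the Hom interaction, 0 to 1 for the Het interaction and 0 to 1 between batches, 1 to 2 partner genes called in Hom (0 in batch 1 alone, 0 in batch 2 alone and 0 with the astroglial covariate), and 0 to 1 paralogs whose r with Chd7 passed. The changes that turned sign ranged as follows. In Hom against WT they were -0.025 to 0.10 for Chd1, -0.050 to 0.026 for Chd2, -0.036 to 0.054 for Chd3, -0.29 to 0.12 for Chd5 and -0.22 to 0.087 for Chd7. In Het against WT they were -0.047 to 0.062 for Chd1, -0.036 to 0.075 for Chd3, -0.22 to 0.075 for Chd7 and -0.12 to 0.00052 for Chd9. Between batches they were -0.046 to 0.021 for Chd2, -0.037 to 0.21 for Chd5, -0.063 to 0.18 for Chd7 and -0.065 to 0.011 for Chd8, and the r with Chd7 was -0.065 to 0.16 for Chd3, -0.077 to 0.14 for Chd5 and -0.17 to 0.16 for Chd6.

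Samples with the same replicate number did not deviate together: correlations ran from -0.23 to 0.26, and 3 of 14 libraries were closest to their own number. Hom 3 is in batch 2 while WT 3 and Het 3 are in batch 1, so a shared number is not always a shared batch. With a replicate block, 0 Chd genes were called in Hom against WT, Het against WT and Hom against Het, and Chd7 was at -0.06 and -0.11; Chd2 (0.0065), Chd3 (-0.033) and Chd5 (0.11) turned sign in Hom.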
